A study of Homo sapiens with 36 samples.

Results

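PC-3 is an established human prostate cancer cell line that lacks functional p53. Its response to low oxygen was read while every culture held the drug vorinostat. The comparison takes the 6 arrays labelled PC-3 with vorinostat, 3 hypoxic and 3 normoxic, of 36 arrays in the series, and covers all 12360 genes that were detected and named. The hypoxic cells were exposed to 0.2% oxygen for 24 h and to 1 µM vorinostat for 24 h. The normoxic cells received the same dose of vorinostat for 24 h, so the controls carry the drug too, and the labels separate the groups by oxygen only. The series sets 3 prostate cancer lines, DU145 (labelled radiation resistant), PC-3 and 22Rv1 (both labelled radiation sensitive), in normoxia or hypoxia, with vorinostat or without, at 3 arrays per combination. Cells were sampled before irradiation. The drug-free arrays are titled solvent, while the characteristics of the normoxic ones say untreated, and they are called solvent here. The series looked for a drug signature that does not depend on oxygen, and this comparison asks which genes answered to oxygen with the drug present.

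Cells sense oxygen through prolyl hydroxylases that mark the alpha subunits of hypoxia-inducible factor (HIF) for destruction by the VHL ubiquitin ligase. When oxygen is low the alpha subunits persist, pair with ARNT and bind the core motif ACGTG or GCGTG near genes of glucose uptake, glycolysis, blood vessel growth and collagen modification. Vorinostat inhibits zinc-dependent histone deacetylases and so raises histone acetylation, and HIF itself works with acetyltransferases and deacetylases as cofactors.

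On the 6 arrays 15105 to 16900 of 47323 probes were above background (detection p under 0.01), and replicates correlated at 0.985 to 0.992. The labels do not say that replicates came from separate cultures, so the spread behind the p-values may be technical. That spread is pooled over all 36 arrays in 12 groups and not taken from these 6 alone. By median SD between replicates, the hypoxic vorinostat group of PC-3 was the most variable of the 12 groups. The 22Rv1 groups were the least variable, so SEs and p-values may understate the spread of these 6 arrays. The number of arrays limits the precision. The epithelial markers KRT8, KRT18, EPCAM and CDH1 were above background on 12 of 12 PC-3 arrays. The prostate kallikreins KLK2 and KLK3 were above background on 0 of 12. Of 20 marker genes of fibroblasts, endothelium and leukocytes with a probe, 6 were above background on any PC-3 array, COL1A1 and PECAM1 on 12 of 12. The 6 tested were these with HBA1, on no PC-3 array, in place of DCN. None of the 6 tested was called (unadjusted 0 higher and 0 lower in limma). In RNA from whole cultures, fewer cells of a type and less RNA per cell cannot be told apart.

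Hypoxia changed 1719 of 12360 genes (13.9%) in vorinostat-treated PC-3 at an adjusted p under 0.05, 844 higher (6.83% of all genes) and 875 lower (7.08%). Of these, 403 rose and 255 fell by at least 1.5-fold. A gene is called here when the adjusted p of limma's moderated test, in 1 model over all 36 arrays with Benjamini-Hochberg adjustment, is under 0.05. Changes are log2 differences, hypoxia minus normoxia, ± SE. The model takes its spread from all 12 groups, and the count changed with the arrays fitted. It was 660 when only the 12 PC-3 arrays were fitted and 291 with the 6 arrays alone (196 higher, 95 lower), and 1094 without normoxic array 3. The split rests on the scaling. With each array scaled to its median, the median of all genes moved from -0.0089 to -0.12. There 291 genes were called higher against 1218 lower. With cyclic loess the median of all genes was 0.023. List medians given for these 2 settings include that shift of all genes. The 3 hypoxic arrays all lay above the 3 normoxic ones in 11.9% of the 12360 genes and all below in 13.4%. All 115 named genes called in this comparison kept their direction in each of the 18 alternatives. In each gene, hypoxic minus normoxic had that direction in all 3 pairs of same-numbered arrays, also in the 7 whose groups overlapped. Without overlap the result by pairs holds by definition. The genes were called on these same arrays, which the alternatives reuse, so neither the pairs nor the kept directions are separate support. Of the 115, 77 stayed called with the PC-3 arrays alone and 60 with the 6 arrays alone. For gene lists the counts are of genes called. A range in brackets is that over the 18 alternatives where it passes 1.5-fold. Unadjusted counts are at a limma p under 0.05, where 1660 of all 12360 genes were higher and 1746 lower. Where an alternative other than a fit with fewer arrays ends a gene's call it is named, with the range of the adjusted p over all alternatives in brackets.

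The largest rise was in ANGPTL4, a secreted inhibitor of lipoprotein lipase. Its log2 intensity was 9.33, 8.47 and 8.16 on the normoxic arrays and 12.44, 12.16 and 12.16 on the hypoxic arrays, a change of 3.60 ± 0.23, adjusted p = 1.3e-12. The groups lay far apart, and a 2nd probe of the gene rose by 2.02. DEPP1, a regulator of autophagy, read 5.60, 6.15 and 5.71 on the normoxic arrays and 8.97, 9.24 and 9.13 on the hypoxic arrays (3.30 ± 0.15, adjusted p = 1.4e-15). UCN2, a peptide hormone of the corticotropin-releasing factor family, read 5.61, 4.72 and 4.77 on the normoxic arrays and 7.96, 7.81 and 7.76 on the hypoxic arrays (2.81 ± 0.17, adjusted p = 3.8e-13). It was above background on 1 of 3 normoxic arrays, the one with the highest of the 3 values, and on 3 of 3 hypoxic arrays. ITPR1, an inositol trisphosphate-gated calcium channel of the endoplasmic reticulum, read 8.21, 8.35 and 8.41 on the normoxic arrays and 10.70, 10.24 and 10.55 on the hypoxic arrays (2.17 ± 0.19, adjusted p = 1.7e-09). ADAM8, a membrane-bound metalloprotease, read 6.59, 6.61 and 6.37 on the normoxic arrays and 8.59, 9.12 and 8.27 on the hypoxic arrays (2.14 ± 0.12, adjusted p = 2.6e-13). Hypoxic arrays 1 and 2 of ADAM8 lay above the 3rd, and all 3 cleared the normoxic arrays. PDGFB, a platelet-derived growth factor chain, read 6.20, 6.56 and 6.30 on the normoxic arrays and 8.32, 8.93 and 8.10 on the hypoxic arrays (2.10 ± 0.18, adjusted p = 2.4e-09). Other PDGFB probes rose by 1.88 and 0.68. DDIT4, which restrains the growth kinase complex mTORC1, read 8.35, 7.42 and 7.74 on the normoxic arrays and 10.00, 9.99 and 9.77 on the hypoxic arrays (2.08 ± 0.17, adjusted p = 1.1e-09). In both genes the lowest hypoxic array stood above the highest normoxic one. ANKRD37, an ankyrin-repeat protein known as a HIF target, read 8.35, 7.87 and 7.99 on the normoxic arrays and 10.16, 9.91 and 10.23 on the hypoxic arrays (2.03 ± 0.19, adjusted p = 1.2e-08). SLAMF9, a receptor of the SLAM family, read 5.51, 5.91 and 4.88 on the normoxic arrays and 7.50, 7.74 and 7.06 on the hypoxic arrays (2.00 ± 0.19, adjusted p = 1.7e-08) and was above background on 2 of 3 normoxic arrays. SCNN1G, the gamma subunit of the epithelial sodium channel, is described with the solvent arrays.

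**Figure D1:**
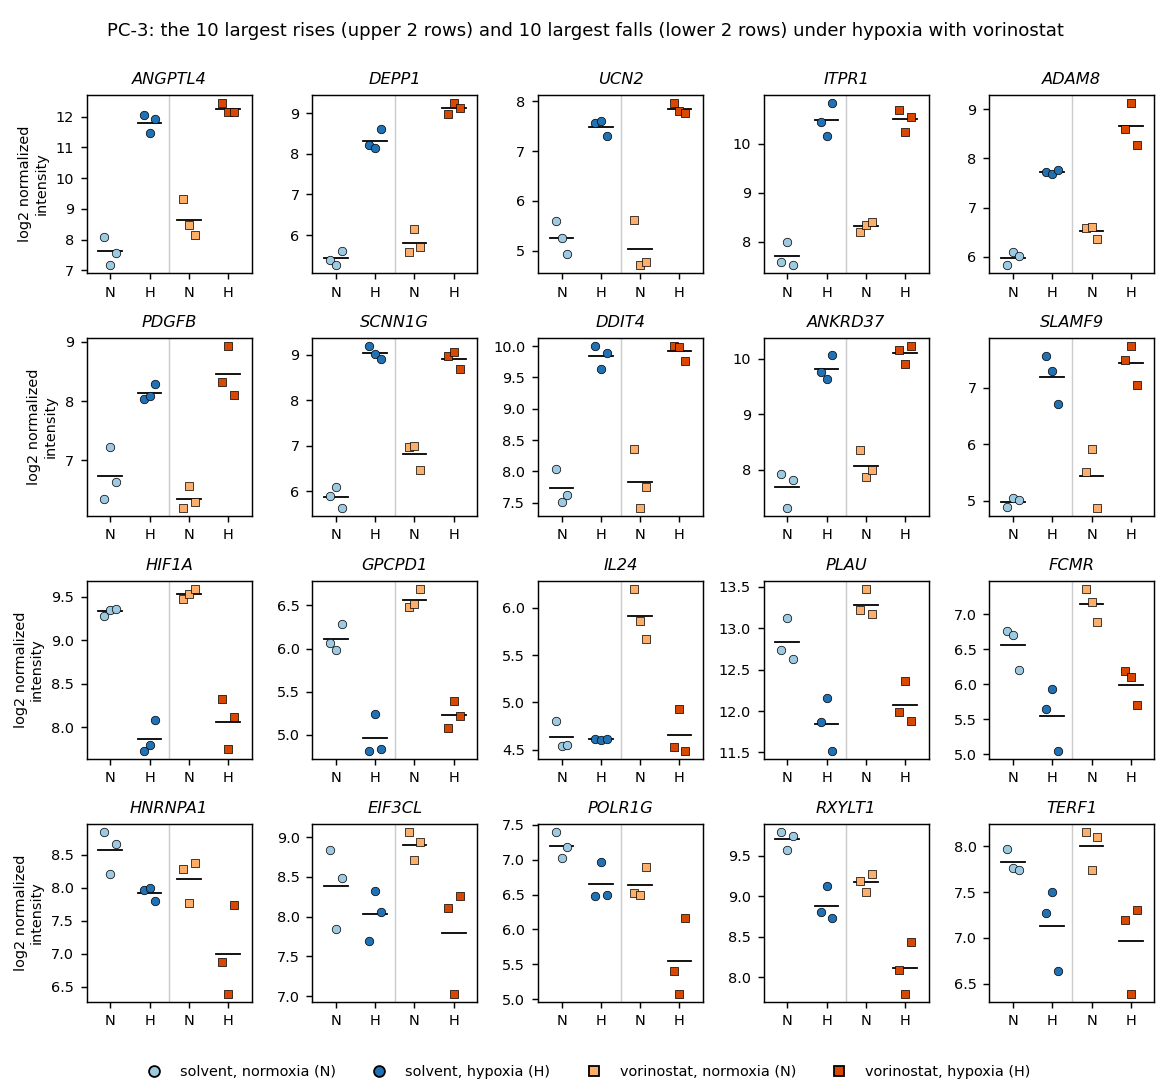
Log2 normalized intensity (vertical axis) on each PC-3 array for the 10 largest called rises and 10 largest called falls under hypoxia with vorinostat among genes whose groups do not overlap; bars are means of 3 arrays, circles are solvent and squares are vorinostat. N is normoxia and H hypoxia, the 20 genes were chosen for the distance between their vorinostat squares, and for IL24 the solvent circles lie near the hypoxic vorinostat squares.

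Promoter sequence is shown for 6 of these rises, the 3 largest that were called in all 3 lines under vorinostat and the 3 largest that were called in neither other line. RefSeq promoters (GRCh38.p14) were searched for ACGTG and GCGTG on both strands in the 250 bases before the start; ACGTG is also part of the E-box CACGTG, which other factors bind. In that order they are ANGPTL4 (chr19:8363905-8364154, plus strand), DDIT4 (chr10:72273674-72273923, plus strand), ANKRD37 (chr4:185396591-185396840, plus strand), DEPP1 (chr10:44978810-44979059, minus strand), UCN2 (chr3:48563782-48564031, minus strand) and ITPR1 (chr3:4493098-4493347, plus strand). Each runs 5′ to 3′ on the gene's strand, with matches to ACGTG or GCGTG, or to their reverse complements CACGT and CACGC, in capitals.

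ANGPTL4: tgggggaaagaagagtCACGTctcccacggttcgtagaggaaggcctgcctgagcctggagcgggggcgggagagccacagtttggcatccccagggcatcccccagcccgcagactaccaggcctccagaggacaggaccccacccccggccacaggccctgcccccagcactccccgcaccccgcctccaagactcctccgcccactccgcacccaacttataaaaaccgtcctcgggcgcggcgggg

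DDIT4: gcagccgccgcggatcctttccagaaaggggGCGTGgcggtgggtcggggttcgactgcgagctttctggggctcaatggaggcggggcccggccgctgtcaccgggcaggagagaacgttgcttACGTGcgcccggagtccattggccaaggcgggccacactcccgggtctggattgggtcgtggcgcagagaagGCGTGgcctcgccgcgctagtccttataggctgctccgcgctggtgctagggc

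ANKRD37: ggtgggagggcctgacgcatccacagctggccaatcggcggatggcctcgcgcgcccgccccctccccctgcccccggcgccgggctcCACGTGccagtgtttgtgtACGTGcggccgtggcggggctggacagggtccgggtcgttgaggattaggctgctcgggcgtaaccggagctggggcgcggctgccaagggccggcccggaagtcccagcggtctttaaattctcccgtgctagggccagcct

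DEPP1: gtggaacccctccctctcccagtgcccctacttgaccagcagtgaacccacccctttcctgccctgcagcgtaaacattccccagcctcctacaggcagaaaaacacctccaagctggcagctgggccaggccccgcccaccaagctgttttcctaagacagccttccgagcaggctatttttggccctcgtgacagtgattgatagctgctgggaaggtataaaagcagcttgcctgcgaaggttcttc

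UCN2: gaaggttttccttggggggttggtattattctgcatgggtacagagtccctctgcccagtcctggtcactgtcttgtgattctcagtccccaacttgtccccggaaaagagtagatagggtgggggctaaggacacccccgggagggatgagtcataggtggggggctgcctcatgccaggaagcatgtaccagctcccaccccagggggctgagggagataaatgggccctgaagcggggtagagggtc

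ITPR1: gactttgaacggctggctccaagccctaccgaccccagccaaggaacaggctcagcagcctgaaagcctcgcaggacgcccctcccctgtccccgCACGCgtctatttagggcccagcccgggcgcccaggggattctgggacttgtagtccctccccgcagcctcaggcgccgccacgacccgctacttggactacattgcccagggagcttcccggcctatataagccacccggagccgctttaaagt

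The window held 1 match for ANGPTL4, 3 for DDIT4 and 3 for ANKRD37, where the first 2 overlap as 1 palindromic site. It held 0 for DEPP1, 0 for UCN2 and 1 for ITPR1. SLAMF9, called in neither other line, held 1, and SLC2A1, which rose in all 3 lines, held 0. A match is a run of letters and not evidence of binding, and 43.1% of all 27305 RefSeq promoters hold at least 1 in this window. Among tested genes with a promoter the share with either motif was 57%, against 60.5% of genes called higher, 59.4% of genes called lower and 58.5% of those that rose at least 2-fold. It was 74.1% of genes called higher in all 3 lines and 38.7% of those whose rise was larger in PC-3 than in both others. For ACGTG alone, 23.3% of tested genes held it on either strand, against 29.6% of genes called higher, 22.3% of genes called lower and 43.1% of the 65 matched genes that rose at least 2-fold. It was 52.7% of 112 matched genes called higher in all 3 lines, and 22.6% of 31 whose rise was larger in PC-3 than in both other lines. The median GC content of these 2 sets was 67.6% and 68.0%, against 64.8% for tested genes. Both motifs contain the base pair step CG, whose median count in the window was 23 and 19 in these 2 sets and 21 for tested genes. No test was made.

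The largest fall was in HIF1A, which encodes the HIF-1 alpha subunit itself. Its log2 intensity was 9.48, 9.54 and 9.59 on the normoxic arrays and 8.32, 7.75 and 8.12 on the hypoxic arrays (-1.47 ± 0.22, adjusted p = 2.4e-05). The normoxic arrays lay within a narrow band, the hypoxic ones were spread below it, and the 3 probes of the gene changed by -1.47 to -1.77. GPCPD1, an enzyme that breaks down glycerophosphocholine, read 6.49, 6.52 and 6.69 on the normoxic arrays and 5.08, 5.39 and 5.22 on the hypoxic arrays (-1.34 ± 0.12, adjusted p = 7.8e-09) and was above background on 1 of 3 hypoxic arrays. IL24, a cytokine of the interleukin-10 family, read 6.20, 5.86 and 5.68 on the normoxic arrays and 4.53, 4.93 and 4.49 on the hypoxic arrays (-1.26 ± 0.31, adjusted p = 0.00574). It was above background on no hypoxic array and was at least 1.46-fold lower there, taking as the hypoxic level the higher of its own signal and the lowest signal of a probe above background; its call ended with no background correction and on the processed values (adjusted p 2.2e-04 to 0.0617). Another probe of IL24 changed by -0.20 and was not called. PLAU, the urokinase plasminogen activator, read 13.22, 13.48 and 13.17 on the normoxic arrays and 11.98, 12.36 and 11.88 on the hypoxic arrays (-1.21 ± 0.18, adjusted p = 2.0e-05). FCMR, a receptor for immunoglobulin M, read 7.36, 7.18 and 6.89 on the normoxic arrays and 6.19, 6.10 and 5.70 on the hypoxic arrays (-1.15 ± 0.18, adjusted p = 6.4e-05). The hypoxic arrays of both genes lay below all normoxic arrays. RXYLT1, a xylosyltransferase of dystroglycan, changed by -1.06 ± 0.13, adjusted p = 1.3e-06, and TERF1, a telomere-binding protein, by -1.04 ± 0.20, adjusted p = 5.5e-04. POLR1G, a subunit of RNA polymerase I, changed by -1.08 ± 0.19, adjusted p = 2.2e-04 and was above background on 2 of 3 hypoxic arrays. EIF3CL, a near-identical copy of a translation initiation factor gene, changed by -1.11 ± 0.26, adjusted p = 0.00433, and its call ended without hypoxic array 2 (adjusted p 0.00168 to 0.096). The splicing factor gene HNRNPA1 changed by -1.14 ± 0.22, adjusted p = 7.4e-04 on 1 probe and by -0.29 on another that was not called. Both genes have close copies, so these values are uncertain.

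The genes of the oxygen-sensing machinery were split: of 12 tested, 2 rose and 2 fell, with a median log2 change of 0.07. EGLN1, the main prolyl hydroxylase, read 6.58, 6.71 and 6.66 on the normoxic arrays and 7.60, 7.89 and 7.64 on the hypoxic arrays (1.06 ± 0.11, adjusted p = 3.5e-08), and SIAH2, a ubiquitin ligase that targets prolyl hydroxylases, rose by 0.67 ± 0.11, adjusted p = 1.5e-04. HIF1A fell, as did the prolyl hydroxylase EGLN2 (-0.32 ± 0.10, adjusted p = 0.0369), and the EGLN2 call ended without hypoxic array 1, 2 or 3 or normoxic array 1, with median scaling, with cyclic loess and with the mean of its probes (adjusted p 0.00904 to 0.799). EPAS1, the HIF-2 alpha subunit, was not called (0.42 ± 0.19, adjusted p = 0.156), and its hypoxic arrays lay above all normoxic ones. It was called with no background correction and on the processed values (0.39 ± 0.12, adjusted p = 0.0191) and with an offset of 50 (0.41 ± 0.14, adjusted p = 0.0453). VHL was not called (-0.21 ± 0.19, adjusted p = 0.529), and neither was ARNT or EGLN3, which were above background on 0 of 6 arrays.

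Genes of glucose uptake and glycolysis rose together: of 23 tested, 16 rose (range 9 to 18) and 0 fell, 18 higher and 0 lower unadjusted, with a median log2 change of 0.54. SLC2A1, the GLUT1 glucose transporter, read 9.71, 9.56 and 9.37 on the normoxic arrays and 11.63, 11.56 and 11.45 on the hypoxic arrays (2.00 ± 0.13, adjusted p = 1.3e-12). HK2, the hexokinase that traps glucose in the cell, read 8.64, 8.68 and 8.86 on the normoxic arrays and 10.41, 10.36 and 10.15 on the hypoxic arrays (1.58 ± 0.16, adjusted p = 5.6e-08). The 2 groups were apart in both. PFKFB4, which makes the activator of phosphofructokinase, rose by 1.62 ± 0.17, adjusted p = 5.1e-08, ENO2, an enolase, by 1.58 ± 0.15, adjusted p = 8.9e-09, and PGK1, a phosphoglycerate kinase, by 0.84 ± 0.11, adjusted p = 1.9e-06. LDHA, which makes lactate, was not called (0.11 ± 0.07, adjusted p = 0.342), and its sign turned with median scaling (-0.05). Another of its 3 probes rose by 0.86 ± 0.16 (adjusted p = 4.6e-04 over probes), and with the mean of the probes LDHA was called (0.38 ± 0.08, adjusted p = 0.00115). In glycogen metabolism, of 7 tested, 3 rose and 0 fell, 3 higher and 0 lower unadjusted, with a median log2 change of 0.31. The rises were in the branching enzyme GBE1 (1.27 ± 0.13, adjusted p = 5.1e-08), the phosphorylase PYGL (0.81 ± 0.11, adjusted p = 3.1e-06) and the synthase GYS1 (0.64 ± 0.21, adjusted p = 0.0401). The GYS1 call ended without any single one of the 6 arrays and in 5 other alternatives (adjusted p 0.023 to 0.114). Among pH regulators, of 5 tested, 1 rose and 0 fell, 2 higher and 0 lower unadjusted, with a median log2 change of 0.20. The rise was in the carbonic anhydrase CA12 (0.68 ± 0.19, adjusted p = 0.0139), and its call ended without hypoxic array 1 or normoxic array 2 or 3 and with median scaling (adjusted p 9.4e-05 to 0.0772).

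In the list of the pyruvate switch and mitochondrial adaptation, of 14 tested, 7 rose and 1 fell, with a median log2 change of 0.35. BNIP3, a receptor that marks mitochondria for autophagy, read 11.98, 11.81 and 11.88 on the normoxic arrays and 13.20, 12.96 and 12.87 on the hypoxic arrays (1.12 ± 0.09, adjusted p = 1.1e-09), and its groups were well apart. PDK3, a kinase that shuts pyruvate out of the mitochondrion, rose by 1.53 ± 0.17, adjusted p = 2.4e-07, FAM162A, a mitochondrial protein of hypoxic cells, by 1.40 ± 0.23, adjusted p = 7.4e-05, and AK4, a mitochondrial adenylate kinase, by 1.34 ± 0.13, adjusted p = 1.8e-08. Another AK4 probe changed by -0.15 and was not called, and the rest rose by 0.91 to 0.94. The promoters of BNIP3 and FAM162A held 6 and 4 matches to ACGTG or GCGTG, and those of CDK4 and SIRT1, which fell, held 6 each. A palindromic CACGTG gives overlapping matches that are each counted. BNIP3, CDK4 and SIRT1 hold such sites, CDK4 and SIRT1 more of them than BNIP3. The sequences shown are BNIP3 (chr10:131981924-131982173, minus strand) and FAM162A (chr3:122383932-122384181, plus strand), marked as above.

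BNIP3: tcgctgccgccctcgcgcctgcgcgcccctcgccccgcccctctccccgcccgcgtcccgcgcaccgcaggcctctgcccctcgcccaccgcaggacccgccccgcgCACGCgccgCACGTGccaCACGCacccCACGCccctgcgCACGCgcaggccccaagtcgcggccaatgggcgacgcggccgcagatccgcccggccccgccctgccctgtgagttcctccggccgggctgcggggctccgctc

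FAM162A: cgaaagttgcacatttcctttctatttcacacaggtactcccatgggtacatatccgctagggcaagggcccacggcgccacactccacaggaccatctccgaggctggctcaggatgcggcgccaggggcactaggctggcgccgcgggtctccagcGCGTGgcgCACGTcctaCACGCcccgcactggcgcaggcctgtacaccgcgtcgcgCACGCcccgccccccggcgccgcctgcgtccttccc

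Nuclear genes of the respiratory chain were not called: of 36 tested, 0 rose and 0 fell, 1 higher and 6 lower unadjusted, with a median log2 change of -0.03 but 0.00059 with cyclic loess. In the tricarboxylic acid cycle list, of 20 tested, 1 rose and 1 fell, with a median log2 change of -0.09. These were pyruvate carboxylase PC (0.91 ± 0.22, adjusted p = 0.00483) and the isocitrate dehydrogenase IDH1 (-0.33 ± 0.10, adjusted p = 0.0221). The PC call ended without hypoxic array 2 (adjusted p 8.2e-04 to 0.0669), and that of IDH1 ended without hypoxic array 2 or normoxic array 3 and with array weights (adjusted p 5.9e-04 to 0.197).

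Of 16 tested secreted hypoxia-induced factors, 7 rose (range 3 to 7) and 1 fell, with a median log2 change of 0.32. ADM, the vessel-dilating peptide adrenomedullin, read 9.97, 10.19 and 9.55 on the normoxic arrays and 11.26, 11.67 and 11.52 on the hypoxic arrays (1.57 ± 0.17, adjusted p = 1.8e-07). VEGFA, the vascular endothelial growth factor, read 6.56, 6.18 and 5.84 on the normoxic arrays and 7.29, 7.20 and 6.78 on the hypoxic arrays (0.90 ± 0.19, adjusted p = 0.00145), and STC2, a stanniocalcin, rose by 1.16 ± 0.13, adjusted p = 1.5e-07. In each of the 3 the hypoxic arrays stood above the normoxic ones. In collagen modification and matrix, of 19 tested, 11 rose and 0 fell, 12 higher and 0 lower unadjusted, with a median log2 change of 0.77. The collagen prolyl hydroxylase subunits P4HA1 (1.23 ± 0.13, adjusted p = 5.6e-08) and P4HA2 (1.29 ± 0.11, adjusted p = 2.4e-09) rose, as did the lysyl hydroxylase PLOD2 (1.25 ± 0.12, adjusted p = 9.3e-09) and the fibronectin receptor subunit ITGA5 (1.14 ± 0.15, adjusted p = 2.8e-06). LOX, which crosslinks collagen, rose by 0.94 ± 0.24, adjusted p = 0.00861 and was above background on 2 of 3 normoxic arrays; its call ended without hypoxic array 3 or normoxic array 2 (adjusted p 6.7e-04 to 0.0985). Of 33 tested other hypoxia-induced genes, 26 rose and 0 fell, 28 higher and 0 lower unadjusted, with a median log2 change of 0.92. Beside DDIT4 and ANKRD37 they include NDRG1, a stress-responsive protein (1.52 ± 0.17, adjusted p = 1.8e-07), KISS1R, the kisspeptin receptor (1.49 ± 0.17, adjusted p = 2.7e-07), and BHLHE40, a transcriptional repressor of the clock (0.99 ± 0.11, adjusted p = 2.4e-07). The histone demethylases, which need oxygen to work, moved the same way: of 14 tested, 8 rose (range 3 to 9) and 0 fell, 12 higher and 0 lower unadjusted, with a median log2 change of 0.44. KDM3A, a demethylase of histone H3, read 7.14, 6.99 and 7.64 on the normoxic arrays and 8.26, 8.10 and 8.16 on the hypoxic arrays (0.92 ± 0.17, adjusted p = 3.1e-04), without overlap. The family member JMJD6 rose by 1.12 ± 0.13, adjusted p = 2.8e-07 and KDM4B by 0.78 ± 0.17, adjusted p = 0.00272. KDM5C (0.70 ± 0.21, adjusted p = 0.0265) was above background on 1 of 3 arrays in each group, its groups overlapped, and its call ended without hypoxic array 2 or normoxic array 1 or 3, with median scaling and with array weights (adjusted p 0.00584 to 0.2).

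**Figure D2:**
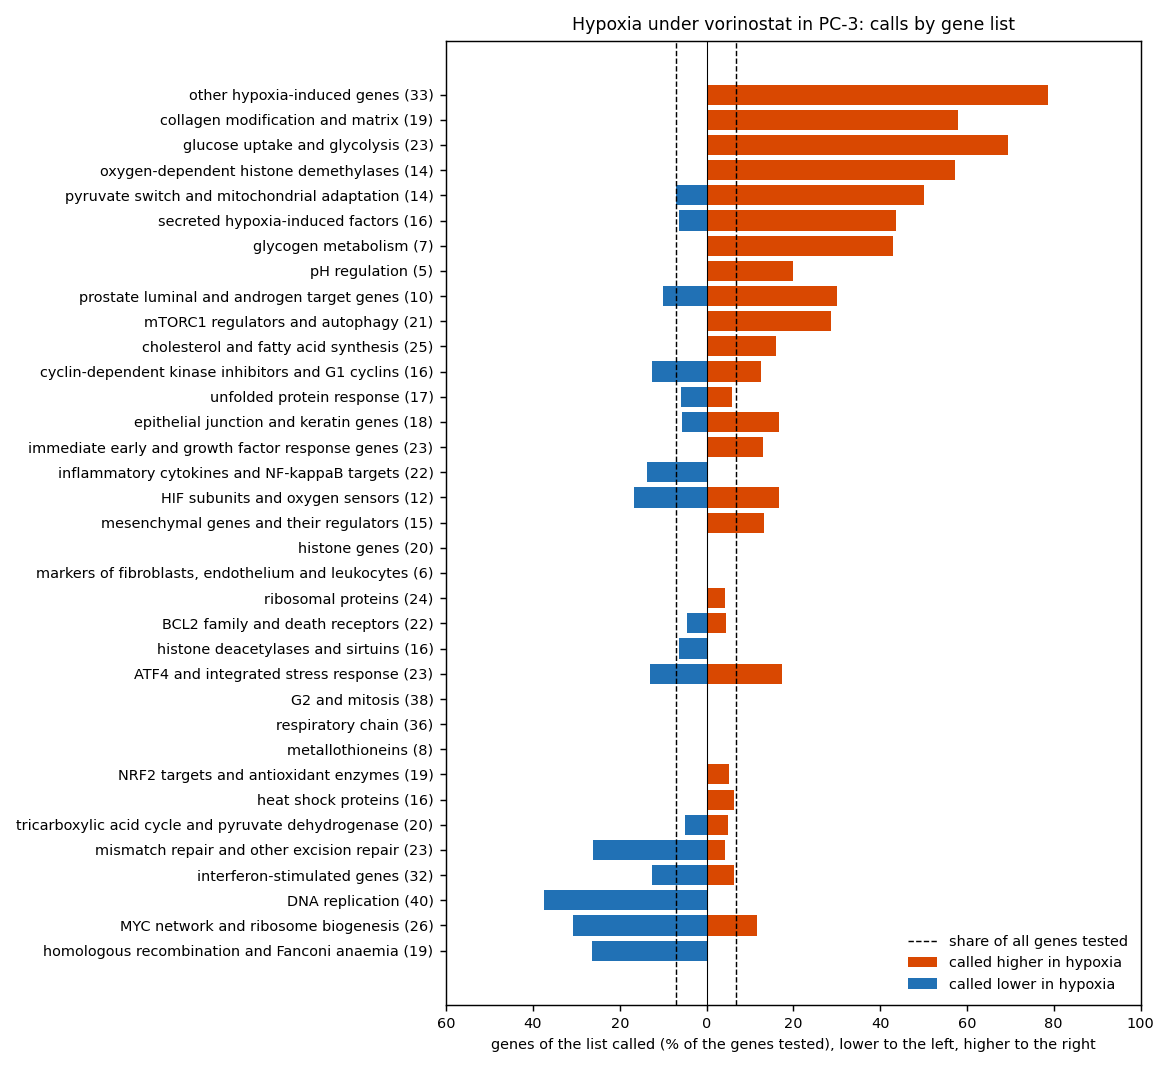
Share of the tested genes of each list (number in brackets) called higher (orange, right) or lower (blue, left) under hypoxia in vorinostat-treated PC-3, in percent, ordered by the list's median log2 change; dashed lines are the shares of all 12360 genes, 6.83% higher and 7.08% lower. The hypoxia-induced and glycolysis lists reach furthest right and DNA replication reaches furthest left.

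Falls were called in the lists of DNA replication, DNA repair and ribosome biogenesis. Of 40 tested DNA replication genes, 0 rose and 15 fell (range 1 to 16), 2 higher and 19 lower unadjusted, with a median log2 change of -0.22. With the PC-3 arrays alone the count of falls was 7 and with the 6 arrays alone 1. RFC3, a subunit of the clamp loader, read 8.70, 8.67 and 8.66 on the normoxic arrays and 7.83, 7.68 and 8.09 on the hypoxic arrays (-0.81 ± 0.13, adjusted p = 8.1e-05). Its hypoxic arrays lay below all normoxic ones. Other RFC3 probes changed by -0.52, which was called, and by -0.03, which was not. Its partner RFC2 fell by 0.71 ± 0.16 (adjusted p = 0.00344). For RFC2 its call ended with the mean of its probes (adjusted p 8.4e-04 to 0.332). PCNA, the sliding clamp, read 10.14, 10.06 and 10.96 on the normoxic arrays and 9.55, 9.45 and 10.16 on the hypoxic arrays (-0.66 ± 0.19, adjusted p = 0.0178), with overlap between the groups and array 3 highest in both, and its call ended without hypoxic array 1 or 2 or normoxic array 3 (adjusted p 0.00158 to 0.227). By number, hypoxic minus normoxic, PCNA differed by -0.59, -0.61 and -0.79. GINS4, of the replicative helicase, also overlapped (-1.09 ± 0.30, adjusted p = 0.0145), and its call ended without hypoxic array 2 or normoxic array 1 or 3 (adjusted p 0.00212 to 0.234); by number it differed by -0.86, -1.72 and -0.70. TYMS, the thymidylate synthase, was not called (-0.08 ± 0.12, adjusted p = 0.742).

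In homologous recombination and the Fanconi pathway, of 19 tested, 0 rose and 5 fell (range 1 to 9), 0 higher and 10 lower unadjusted, with a median log2 change of -0.29. FANCG, of the Fanconi core complex, changed by -0.69 ± 0.17, adjusted p = 0.00545, the helicase BLM by -0.67 ± 0.19, adjusted p = 0.0155 and FANCI by -0.42 ± 0.11, adjusted p = 0.011. Single arrays ended these calls: FANCG without hypoxic array 2 (adjusted p 0.00118 to 0.084), BLM without hypoxic array 1 or normoxic array 2 (adjusted p 0.00155 to 0.134), and FANCI without hypoxic array 1 or normoxic array 3 (adjusted p 0.00876 to 0.112). In mismatch and excision repair, of 23 tested, 1 rose and 6 fell (range 0 to 7), with a median log2 change of -0.12. The oxidized-base glycosylases OGG1 (-0.81 ± 0.17, adjusted p = 0.00129) and MUTYH (-0.47 ± 0.08, adjusted p = 1.7e-04) were lower, and so were the glycosylase NTHL1 (-0.48 ± 0.12, adjusted p = 0.00677) and the mismatch protein PMS2 (-0.48 ± 0.12, adjusted p = 0.00535). Other MUTYH probes changed by -0.43 and -0.15 and were not called. For PMS2, its call ended without hypoxic array 2 and with the mean of its probes (adjusted p 0.00205 to 0.117). For NTHL1, its call ended without hypoxic array 1 or normoxic array 3 (adjusted p 0.00209 to 0.138).

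In the MYC network and ribosome biogenesis, of 26 tested, 3 rose (range 0 to 3) and 8 fell (range 1 to 10), with a median log2 change of -0.22. RRS1, a ribosome assembly factor, changed by -0.84 ± 0.13, adjusted p = 6.8e-05, RRP9, a component of the small nucleolar ribonucleoprotein, by -0.88 ± 0.25, adjusted p = 0.0153, and MXD1, a MYC antagonist, by 0.85 ± 0.20, adjusted p = 0.00446. The RRP9 call ended without hypoxic array 1 or 2 or normoxic array 3 (adjusted p 0.00156 to 0.0797), and that of MXD1 without normoxic array 3 (adjusted p 1.2e-04 to 0.106). NOP56, a core protein of small nucleolar particles, changed by -0.65 ± 0.19, adjusted p = 0.0199 with overlapping groups, and its call ended without hypoxic array 1 or 2 or normoxic array 3 (adjusted p 0.00175 to 0.213). MYC itself was not called (0.03 ± 0.14, adjusted p = 0.925), and its sign turned with median scaling (-0.12).

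Of 38 tested G2 and mitosis genes, 0 rose and 0 fell, 1 higher and 4 lower unadjusted, with a median log2 change of -0.02 but 0.02 with cyclic loess. Among cyclin-dependent kinase inhibitors and G1 cyclins, of 16 tested, 2 rose and 2 fell, with a median log2 change of 0.12 but -0.05 with median scaling. CDK4, a G1 kinase, fell by 0.66 ± 0.10 (adjusted p = 3.9e-05), and RBL2, a pocket protein of the retinoblastoma family, rose by 0.51 ± 0.13, adjusted p = 0.00611, a call that ended with median scaling (adjusted p 0.00158 to 0.15). The inhibitor CDKN1A was not called (0.40 ± 0.23, adjusted p = 0.257), but was with the replicate block (adjusted p = 0.0307).

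In the list of mTORC1 regulators and autophagy genes, of 21 tested, 6 rose (range 2 to 7) and 0 fell, 8 higher and 0 lower unadjusted, with a median log2 change of 0.18. They include ATG9A, the membrane carrier of autophagy (1.01 ± 0.15, adjusted p = 2.8e-05), and ATG16L1 (0.54 ± 0.11, adjusted p = 0.00154), which was not called after median scaling (adjusted p 1.2e-04 to 0.11). In the unfolded protein response, of 17 tested, 1 rose and 1 fell, with a median log2 change of 0.10 but -0.06 with median scaling. EDEM1, of misfolded protein disposal, rose by 0.67 ± 0.14, adjusted p = 0.00176. In the ATF4 list, of 23 tested, 4 rose and 3 fell (range 0 to 5), with a median log2 change of -0.02 but 0.03 with cyclic loess. It holds the amino acid transporter SLC7A5 (0.93 ± 0.13, adjusted p = 1.4e-05) and the lipoprotein receptor VLDLR, which was above background on 0 of 3 normoxic and 2 of 3 hypoxic arrays and at least 1.29-fold higher in hypoxia (adjusted p = 3.3e-05). For heat shock proteins, of 16 tested, 1 rose and 0 fell, 1 higher and 1 lower unadjusted, with a median log2 change of -0.06. For NRF2 targets and antioxidant enzymes, of 19 tested, 1 rose and 0 fell, 2 higher and 2 lower unadjusted, with a median log2 change of -0.04. For metallothioneins, of 8 tested, 0 rose and 0 fell, 0 higher and 0 lower unadjusted, with a median log2 change of -0.04 but 0.04 with cyclic loess.

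Of 25 tested cholesterol and fatty acid synthesis genes, 4 rose (range 1 to 5) and 0 fell, 9 higher and 0 lower unadjusted, with a median log2 change of 0.13 but -0.02 with median scaling. SC5D, a late enzyme of cholesterol synthesis, read 9.71, 9.66 and 9.56 on the normoxic arrays and 10.57, 10.45 and 10.53 on the hypoxic arrays (0.87 ± 0.11, adjusted p = 1.5e-06), with the hypoxic arrays above the normoxic ones. The desaturase SCD rose by 0.56 ± 0.13, adjusted p = 0.00417, a call lost after median scaling (adjusted p 0.00152 to 0.122). Among the zinc-dependent deacetylases, the drug's target family, and the sirtuins, of 16 tested, 0 rose and 1 fell, 3 higher and 3 lower unadjusted, with a median log2 change of -0.01 but 0.01 with cyclic loess. The fall was in SIRT1, a sirtuin that vorinostat does not target (-0.46 ± 0.13, adjusted p = 0.0169). Its groups overlapped, and its call ended without hypoxic array 3 or normoxic array 2 or 3 (adjusted p 0.00271 to 0.196). HDAC1 was not called (0.01 ± 0.08, adjusted p = 0.953), and its sign turned with median scaling (-0.14). Of 20 tested histone genes, 0 rose and 0 fell, 1 higher and 1 lower unadjusted, with a median log2 change of 0.01 but -0.15 with median scaling.

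Of 32 tested interferon-stimulated genes, 2 rose and 4 fell (range 1 to 8), with a median log2 change of -0.17. The RNA sensor IFIH1 was above background on 3 of 3 normoxic and 0 of 3 hypoxic arrays and at least 1.25-fold lower in hypoxia (adjusted p = 0.00183). IFIT3, an antiviral protein, changed by -0.75 ± 0.17, adjusted p = 0.00297 and was above background on 1 of 3 hypoxic arrays; its call ended with the mean of its probes (adjusted p 4.6e-04 to 0.0953). The exonuclease ISG20 went the other way (1.09 ± 0.10, adjusted p = 1.2e-08). Of 22 tested inflammatory cytokines and NF-kappaB targets, 0 rose and 3 fell (range 1 to 4), 5 higher and 3 lower unadjusted, with a median log2 change of 0.09 but -0.04 with median scaling. IL1B, the cytokine interleukin-1 beta, changed by -0.65 ± 0.14, adjusted p = 0.00256, and NFKB1, an NF-kappaB subunit, by -0.45 ± 0.11, adjusted p = 0.00858, a call that ended without hypoxic array 2 (adjusted p 0.00246 to 0.104). In the BCL2 family and death receptors, of 22 tested, 1 rose and 1 fell, with a median log2 change of -0.01 but 0.02 with cyclic loess. The survival protein MCL1 rose by 0.52 ± 0.12, adjusted p = 0.00418, and its call ended without hypoxic array 2, with median scaling and with the mean of its probes (adjusted p 0.00261 to 0.263).

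Of 23 tested immediate early and growth factor response genes, 3 rose (range 1 to 4) and 0 fell, 5 higher and 2 lower unadjusted, with a median log2 change of 0.10 but -0.05 with median scaling. DUSP1, a phosphatase that switches off MAP kinases, read 8.63, 8.53 and 7.71 on the normoxic arrays and 9.87, 9.76 and 9.51 on the hypoxic arrays (1.42 ± 0.17, adjusted p = 6.4e-07), and its groups stood well apart. Among epithelial junction and keratin genes, of 18 tested, 3 rose (range 1 to 4) and 1 fell, with a median log2 change of 0.10 but -0.05 with median scaling. The tight junction protein CLDN3 rose by 0.78 ± 0.12, adjusted p = 4.8e-05. The keratin KRT18 changed by -0.73 ± 0.23, adjusted p = 0.0326, and its call ended without hypoxic array 1 or 2 or normoxic array 1 or 3 and with no detection filter (adjusted p 0.00801 to 0.217). Of 15 tested mesenchymal genes and their regulators, 2 rose and 0 fell, 3 higher and 1 lower unadjusted, with a median log2 change of 0.06 but -0.04 with median scaling. Among prostate luminal and androgen target genes, of 10 tested, 3 rose (range 2 to 5) and 1 fell, with a median log2 change of 0.19. SLC45A3, or prostein, a prostate membrane transporter, rose by 0.95 ± 0.13, adjusted p = 8.8e-06, and the homeobox gene HOXB13 by 0.64 ± 0.14, adjusted p = 0.00269. Of 24 tested ribosomal protein genes, 1 rose and 0 fell, 1 higher and 0 lower unadjusted, with a median log2 change of -0.0024 but 0.01 with cyclic loess.

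Hypoxia without the drug was measured in PC-3 on 6 other arrays, which share no array with the comparison above. There it changed 2086 genes (16.9%), 908 higher (7.35%) and 1178 lower (9.53%). Across the 12360 genes the 2 log2 changes correlated at r = 0.693, a description over genes, which are not independent and were normalized together. Called higher in both were 437 genes, 48.1% of those higher in solvent and 51.8% of those higher under vorinostat. Called lower in both were 478, 40.6% of those lower in solvent and 54.6% of those lower under vorinostat. The sign under vorinostat was that in solvent for 94.3% of the solvent rises and 93.5% of the solvent falls. The 122 genes that rose at least 2-fold in solvent had a median log2 change of 1.33 there and 1.05 under vorinostat, and 107 of them (87.7%) were called higher with the drug. The 88 genes that rose at least 2-fold under vorinostat had a median of 1.22 there and 1.40 in solvent. Falls chosen in the same way were fewer: 15 of at least 2-fold under vorinostat had a median of -1.09 there and -0.66 in solvent, and 13 in solvent had -1.07 there and -0.71 under vorinostat. Each set was chosen on the arrays named first. The 112 tested genes of 6 lists (glycolysis, glycogen, pyruvate switch, secreted factors, collagen and other hypoxia-induced genes) had a median of 0.67 under vorinostat and 0.70 in solvent. Of them 70 rose and 2 fell with the drug, and 74 and 2 without it. Beside these, the DNA replication list had 15 falls with the drug and 8 without, and the respiratory chain 0 and 8. No gene of either list differed between the 2 hypoxia effects when the difference itself was tested with limma at an adjusted p under 0.05.

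**Figure D3:**
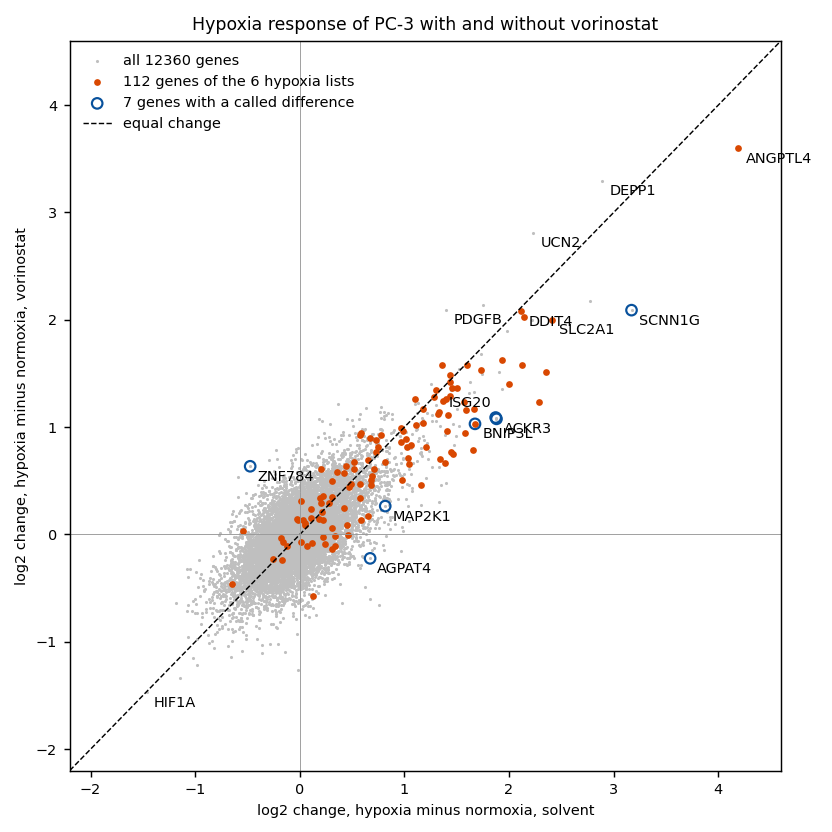
Log2 change under hypoxia of each of 12360 genes in PC-3 with solvent (horizontal axis) and with vorinostat (vertical axis); orange points are the 112 tested genes of 6 hypoxia lists, blue rings the 7 genes whose 2 changes differed by test, and the dashed line marks equal change. The points follow the diagonal, and 6 of the 7 ringed genes lie below it.

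The difference between the 2 hypoxia effects, vorinostat minus solvent, was tested in the same model and shares its arrays with both. It was called for 7 genes (0.0566%), 6 with a smaller or more negative change under the drug (0.0485%) and 1 with a larger one (0.00809%), where 1012 genes had an unadjusted p under 0.05. With the replicate number as a block the count was 46, including all 7, and over the other alternatives it ran from 0 (with the PC-3 arrays alone, or without normoxic vorinostat array 2) to 29. Each of the 7 calls ended without at least 1 single array, so the range of the adjusted p over the alternatives stands beside it. An uncalled gene is not shown to respond alike. Among the 7, SCNN1G had the widest negative difference. In solvent its log2 intensity was 5.89, 6.08 and 5.64 in normoxia and 9.19, 9.02 and 8.91 in hypoxia (3.17 ± 0.15). With vorinostat it was 6.97, 7.00 and 6.46 and 8.97, 9.05 and 8.68 (2.09 ± 0.15), a difference of -1.08 ± 0.22 (adjusted p = 0.0429, 0.00542 to 0.689). The hypoxic levels of the 2 treatments lay together, and the normoxic level was higher with the drug. ACKR3, a scavenging chemokine receptor, was 6.26, 6.47 and 6.59 and 8.32, 8.43 and 8.22 in solvent (1.88 ± 0.10). With vorinostat it was 7.09, 7.15 and 6.71 and 7.94, 8.03 and 8.22 (1.08 ± 0.10), and the difference was -0.80 ± 0.14 (adjusted p = 0.023, 9.3e-04 to 0.819). Here too the drug-treated normoxic arrays stood above the solvent ones. BNIP3L, a mitophagy receptor related to BNIP3, was 9.44, 9.57 and 9.48 and 11.07, 11.21 and 11.24 in solvent (1.67 ± 0.08). With vorinostat it was 10.02, 10.20 and 10.09 and 11.05, 11.23 and 11.13 (1.03 ± 0.08), a difference of -0.64 ± 0.12 (adjusted p = 0.023, 0.00203 to 0.689). A 2nd probe gave -0.38 and was not called. ISG20 was 8.76, 8.64 and 8.52 and 10.64, 10.31 and 10.58 in solvent (1.87 ± 0.10). With vorinostat it was 9.02, 8.97 and 8.92 and 10.11, 9.89 and 10.18 (1.09 ± 0.10), a difference of -0.78 ± 0.15 (adjusted p = 0.023, 0.00226 to 0.689). Its rise was smaller from both ends, with a higher normoxic and a lower hypoxic level under the drug. MAP2K1, the kinase MEK1, rose by 0.82 ± 0.07 in solvent and 0.26 ± 0.07 with vorinostat, a difference of -0.55 ± 0.10 (adjusted p = 0.023, 0.00203 to 0.689). Under vorinostat its call ended without normoxic array 2 and with median scaling (adjusted p 0.00271 to 0.589). AGPAT4, an acyltransferase of phospholipid synthesis, rose by 0.67 ± 0.12 in solvent and was not called with vorinostat (-0.22 ± 0.12), a difference of -0.89 ± 0.17 (adjusted p = 0.023, 0.00354 to 0.689). It was above background on 3 of 6 solvent and 3 of 6 vorinostat arrays. ZNF784, a zinc finger gene, was 7.04, 6.82 and 7.13 and 6.78, 6.34 and 6.44 in solvent, a fall (-0.48 ± 0.14, adjusted p = 0.021). With vorinostat it was 6.05, 5.55 and 5.61 and 6.23, 6.66 and 6.23, a rise (0.64 ± 0.14, adjusted p = 0.00314), and the difference was 1.11 ± 0.20 (adjusted p = 0.023, 0.00921 to 0.689). One other gene was called in opposite directions, the adhesion protein CEACAM6, singled out after its values were seen (0.67 ± 0.20 in solvent and -0.60 ± 0.20 with vorinostat); its difference missed the threshold (adjusted p = 0.0789).

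**Figure D4:**
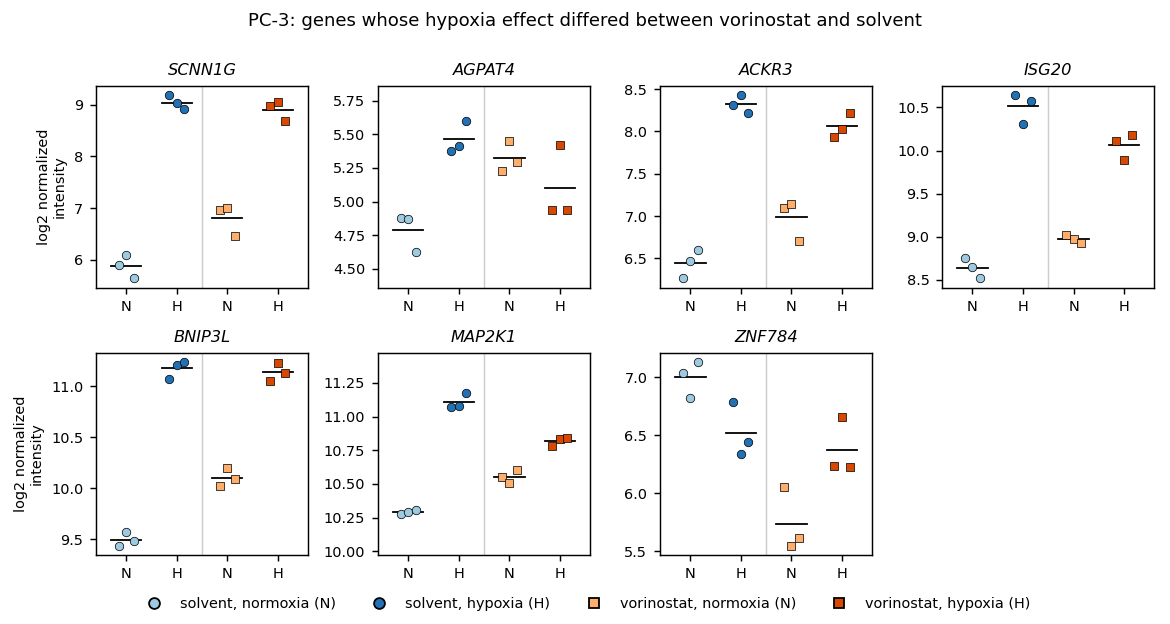
Log2 normalized intensity (vertical axis) of the 7 genes with a called difference between the hypoxia effects, on each PC-3 array in normoxia (N) and hypoxia (H), with solvent (circles) and vorinostat (squares); bars are means of 3 arrays. In 6 genes the normoxic mean is higher with vorinostat, and in ZNF784 it is lower.

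The same exposure of the other lines, also with vorinostat in both groups, shows which rises PC-3 shared. Hypoxia changed 1109 genes in DU145 (8.97%; 4.65% higher, 4.32% lower) and 2695 in 22Rv1 (21.8%; 9.63% higher, 12.2% lower). Called higher in all 3 lines were 134 genes, 15.9% of those higher in PC-3, and 122 were called lower in all 3. Of the shared rises, ANKRD37 was 2.03 ± 0.19 in PC-3, 3.57 ± 0.19 in DU145 and 3.79 ± 0.19 in 22Rv1. PFKFB4 was 1.62 ± 0.17 in PC-3, 1.67 ± 0.17 in DU145 and 3.77 ± 0.17 in 22Rv1. P4HA1 was 1.23 ± 0.13 in PC-3, 1.69 ± 0.13 in DU145 and 2.94 ± 0.13 in 22Rv1. The difference from 22Rv1 was called in each of the 3 (-1.76 ± 0.27, adjusted p = 6.2e-05; -2.15 ± 0.24, adjusted p = 2.2e-07; -1.71 ± 0.18, adjusted p = 9.8e-08). The PC-3 change minus that of DU145 was called for 218 genes (1.76%; 0.987% higher in PC-3, 0.777% lower), or 517 with the replicate block. The PC-3 change minus that of 22Rv1 was called for 714 (5.78%; 3.07% higher, 2.71% lower), or 1088 with the block. Both differences share the PC-3 arrays. Higher in PC-3 and in both differences were 46 genes, 5.45% of the PC-3 rises, with a median log2 change of 1.08 in PC-3. In solvent 40 of these 46 were also called higher in PC-3 (median 0.94). On all arrays of the other line, 16 of the 46 were not above background in DU145 and 20 in 22Rv1.

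Among them, DEPP1 was 3.30 ± 0.15 in PC-3, 0.16 ± 0.15 in DU145 and -0.23 ± 0.15 in 22Rv1, and was above background on 0 of 6 vorinostat arrays of DU145 and 0 of 6 of 22Rv1. UCN2 was 2.81 ± 0.17 in PC-3, 0.10 ± 0.17 in DU145 and 0.24 ± 0.17 in 22Rv1, with 0 and 0 of 6 arrays above background. ITPR1 was 2.17 ± 0.19 in PC-3, -0.06 ± 0.19 in DU145 and 0.18 ± 0.19 in 22Rv1, with 6 and 0 of 6. Where a line was above background on none of its arrays, its value lies between levels not above background, and no difference against it is given. For ITPR1 PC-3 minus DU145 was 2.23 ± 0.26, adjusted p = 3.8e-06. ADAM8 was 2.14 ± 0.12 in PC-3, 0.08 ± 0.12 in DU145 and 0.07 ± 0.12 in 22Rv1, and above background on 0 and 0 of 6 arrays. PDGFB was 2.10 ± 0.18 in PC-3, -0.03 ± 0.18 in DU145 and 0.61 ± 0.18 in 22Rv1. In DU145 it was above background on only 1 of 3 normoxic and 1 of 3 hypoxic vorinostat arrays. DUSP1 was 1.42 ± 0.17 in PC-3, -0.09 ± 0.17 in DU145 and 0.14 ± 0.17 in 22Rv1, and for it PC-3 minus DU145 was 1.51 ± 0.24, adjusted p = 4.6e-04, and PC-3 minus 22Rv1 was 1.28 ± 0.24, adjusted p = 7.3e-04. DUSP1 was called in neither of the other lines. ANGPTL4 also rose in the other lines (1.19 ± 0.23 in DU145 and 2.15 ± 0.23 in 22Rv1), and PC-3 minus DU145 was 2.41 ± 0.32, adjusted p = 2.2e-05, and PC-3 minus 22Rv1 was 1.45 ± 0.32, adjusted p = 0.00486. Lower in PC-3 and in both differences were 11 genes, among them GPCPD1 (-1.34 ± 0.12 in PC-3, -0.63 ± 0.12 in DU145 and -0.64 ± 0.12 in 22Rv1), FCMR (-1.15 ± 0.18, 0.04 ± 0.18 in DU145 and -0.30 ± 0.18 in 22Rv1) and SIRT1 (-0.46 ± 0.13, 0.28 ± 0.13 in DU145 and 0.29 ± 0.13 in 22Rv1). FCMR was above background on no vorinostat array of 22Rv1, so its value there lies between levels not above background. In DU145 GPCPD1 was above background on 2 of 3 normoxic and 0 of 3 hypoxic vorinostat arrays, so its fall there may be cut short.

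In the other direction, STC1, a stanniocalcin, was 0.78 ± 0.16 in PC-3, 0.25 ± 0.16 in DU145 and 4.14 ± 0.16 in 22Rv1, and PC-3 minus 22Rv1 was -3.35 ± 0.23, adjusted p = 1.5e-11. BHLHE40 was 0.99 ± 0.11 in PC-3, 1.70 ± 0.11 in DU145 and 3.85 ± 0.11 in 22Rv1, and IGFBP3, an insulin-like growth factor carrier, was 0.67 ± 0.19, 2.22 ± 0.19 in DU145 and 0.16 ± 0.19 in 22Rv1. PC-3 minus 22Rv1 was -2.86 ± 0.16, adjusted p = 1.3e-13 for BHLHE40, and PC-3 minus DU145 was -1.55 ± 0.26, adjusted p = 0.00127 for IGFBP3. For the IGFBP3 rise in PC-3, its call ended without hypoxic array 2 or normoxic array 1 or 2 and with median scaling (adjusted p 0.00124 to 0.105). The aryl hydrocarbon receptor targets CYP1A1 and CYP1B1 rose in both other lines (CYP1A1 2.22 ± 0.23 in DU145 and 2.16 ± 0.23 in 22Rv1; CYP1B1 2.28 ± 0.21 in DU145 and 2.30 ± 0.21 in 22Rv1). In PC-3 CYP1A1 was above background on 2 of 6 vorinostat arrays and CYP1B1 on 0 of 6, so the PC-3 side is a bound. The same holds for MT3, a metallothionein, COXFA4L2 (NDUFA4L2), a mitochondrial protein, and SLC2A5, a fructose transporter. Each was above background on 0 of 6 vorinostat arrays of PC-3 and rose in 22Rv1, by 4.89 ± 0.19, 2.38 ± 0.18 and 2.41 ± 0.11.

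**Figure D5:**
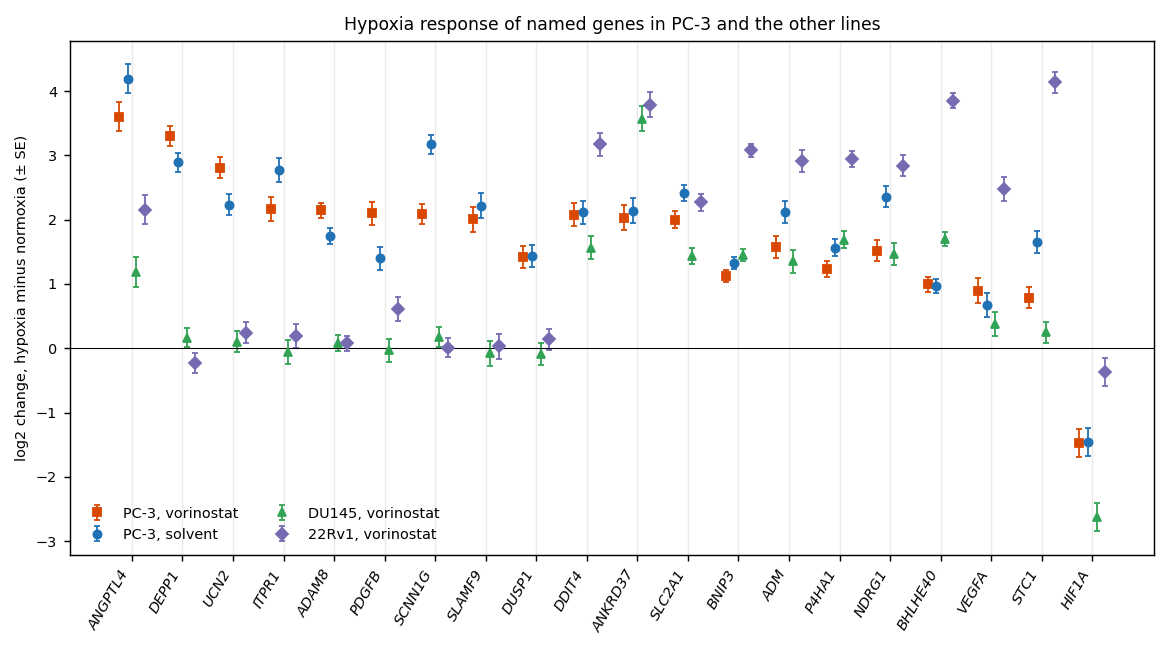
Log2 change under hypoxia (vertical axis, ± SE of the model) of 20 named genes in PC-3 with vorinostat (squares), PC-3 with solvent (circles), DU145 with vorinostat (triangles) and 22Rv1 with vorinostat (diamonds). DEPP1, UCN2, ADAM8, SCNN1G and SLAMF9 were not above background in DU145 or 22Rv1, and ITPR1 was not in 22Rv1. From DEPP1 to DUSP1 the PC-3 points stand above both other lines, and from BNIP3 to STC1 the 22Rv1 diamonds stand highest.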

How the data were processed

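RNA of each culture was hybridised to single-colour Illumina bead arrays, 36 arrays in 12 groups of 3. The deposited signals are the average bead intensity of 47323 probes on a linear scale, not normalized, with a detection p-value of each probe on each array, per the file headers. BeadStudio 3.1.3.0 is named in the submitters' processing notes. The authors also deposited processed intensity values, which were quantile normalized over the 36 arrays, as seen from the values; they served as an alternative after log2.

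Background was corrected with neqc (limma 3.58.1, R 4.3.3, data.table package 1.17.8; offset 16, background from the detection p-values), followed by quantile normalization and log2. The platform annotation, updated through gene identifiers, gave 30113 probes 1 symbol, 8 several and 17202 none. Probes with a detection p under 0.01 on at least 3 arrays were kept (21376, of which 16501 had 1 symbol), and a gene with several probes took the one of highest mean signal, giving 12360 genes. A single limma model of all 36 arrays, with 12 group means, was used, with Benjamini-Hochberg adjustment over all genes. Figures and counts were made with Python 3.11.15, pandas 2.3.3 and matplotlib 3.10.9.

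The members and the 35 gene lists (689 of 814 distinct genes tested) were chosen with earlier results of these data known. Genes were named by rule: the 10 largest rises and 10 largest falls without overlap between groups, up to 4 called genes per list with the largest change, a set of hypoxia and growth genes whether called or not, and the 6 largest called differences in each direction. PDK1 was not detected and not tested, and CA9, of the same set, was not tested. The scripts were tested on simulated data. A probe below background on all arrays of a group gives a bound, as the text says.

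Replicate numbers are given by the labels, which do not say that a number marks a shared culture or day. The deviations of same-numbered vorinostat arrays of PC-3 from their group means correlated at 0.211 to 0.446 in all 3 pairs, against -0.352 to -0.00255 for other numbers, and those of the solvent arrays at 0.151 to 0.353. On this check the numbers pair the arrays, so a fit with the number as a block was run. The other alternatives were median scaling, cyclic loess, no background correction, the processed values, an offset of 50, 2 other detection filters, the mean of a gene's probes, fewer arrays in the fit, array weights, and leaving out each array.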

Additional observations from a re-analysis of the deposited data

Results flagged for a closer look

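The hypoxia effect of PC-3 differed by test between vorinostat and solvent for 7 genes, given here as the log2 difference, vorinostat minus solvent. It was -1.08 for SCNN1G, -0.89 for AGPAT4, -0.80 for ACKR3 and -0.78 for ISG20. It was -0.64 for BNIP3L, -0.55 for MAP2K1 and 1.11 for ZNF784, the gene whose direction turned.

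The hypoxia effect under vorinostat differed by test between PC-3 and DU145, and the widest fitted differences, PC-3 minus DU145, were as follows. Those above 0 were 3.13 for DEPP1, 2.71 for UCN2, 2.41 for ANGPTL4, 2.23 for ITPR1, 2.13 for PDGFB and 2.08 for SLAMF9. Those below 0 were -2.37 for CYP1B1, -2.02 for CYP1A1, -1.87 for CCN5, -1.66 for SYTL2, -1.55 for IGFBP3 and -1.54 for ANKRD37. The ANKRD37 call ended with no background correction and on the processed values. PDGFB was above background on only 1 of 3 normoxic and 1 of 3 hypoxic vorinostat arrays of DU145.

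Against 22Rv1, the widest fitted differences above 0 were 3.53 for DEPP1, 2.57 for UCN2, 2.08 for SCNN1G, 2.07 for ADAM8, 1.99 for ITPR1 and 1.97 for SLAMF9. Those below 0 were -4.89 for MT3, -3.35 for STC1, -2.86 for BHLHE40, -2.48 for COXFA4L2, -2.38 for CYP1B1 and -2.31 for SLC2A5. On the vorinostat arrays, CYP1B1, MT3, COXFA4L2 and SLC2A5 were above background on none of PC-3. DEPP1, UCN2, SLAMF9, SCNN1G and ADAM8 were above background on none of DU145 or 22Rv1, and ITPR1 on none of 22Rv1. For these genes the change of that line lies between levels not above background, so the difference is a value of the fit and not a measured difference between lines.

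Of the 4875 detected probes with no gene symbol or with several, which the comparisons by gene do not use, 171 were called higher and 163 lower under hypoxia in vorinostat-treated PC-3.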

How the results depend on the processing

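The counts changed with the arrays in the fit, the scaling and the replicate block, and the reason was not tested. For hypoxia under vorinostat in PC-3, the count of 1719 genes became 660 with the PC-3 arrays alone and 291 with the 6 vorinostat arrays alone. It was 1094 to 1964 when single arrays were left out, and its share of higher calls, 49.1%, was 19.3% with median scaling. For hypoxia in solvent, the count of 2086 became 1170 with median scaling and 1048 with the PC-3 arrays alone, and its share of higher calls, 43.5%, was 54.2% with cyclic loess. The count of 7 genes for the vorinostat minus solvent difference was 2 with median scaling, 14 with cyclic loess, and 29 with no background correction and with the processed values, which gave equal counts. It was 19 with an offset of 50, 12 with detection on PC-3 arrays, 0 with the PC-3 arrays alone, 4 with array weights, and 0 (without normoxic vorinostat array 2) to 18 (without normoxic solvent array 2) without single arrays.

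Counts for PC-3 minus DU145, 218 genes, were 82 with median scaling (29.3% higher against 56.0%), 383 with no background correction and with the processed values, and 356 with an offset of 50. For PC-3 minus 22Rv1, 714 genes, the count was 360 with median scaling (63.6% higher against 53.1%). With the replicate block the vorinostat minus solvent count was 46, that against DU145 517 and that against 22Rv1 1088; for hypoxia under vorinostat it was 2365, and all 115 named genes called there were called with the block too.

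Signs turned only among named genes not called. With median scaling LDHA was -0.054, MYC -0.12, HDAC1 -0.14 and MT3 0.028. With cyclic loess CYP1B1 was 0.11, MT3 0.18 and COXFA4L2 0.042. MYC was -0.015 with the mean of its probes, and HDAC1 -0.0017 with array weights. Without single arrays, HDAC1 ran from -0.058 to 0.047, CYP1A1 from -0.034 to 0.51, MT3 from -0.046 to 0.050, VHL from -0.42 to 0.18, MYC from -0.11 to 0.15, EGLN3 from -0.0011 to 0.099 and TYMS from -0.18 to 0.013. Among named genes not called, LDHA was called with the mean of its probes, EPAS1 with no background correction, on the processed values and with an offset of 50, CDKN1A and TXNIP with the replicate block, and AGPAT4 without hypoxic array 2. The cause was not tested for any of these changes.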
